A study of Homo sapiens with 12 samples.

Results

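Of the genes measured in these libraries, 40 that act in the G2 phase of the cell cycle and in mitosis were followed across the 4 groups of the series. They were taken by gene symbol: the cyclins, CDK1 and CDC25 phosphatases CCNA2, CCNB1, CCNB2, CDK1, CDC25B and CDC25C, the kinases and their activators PLK1, PLK4, AURKA, AURKB, TPX2 and BIRC5, the checkpoint and anaphase genes BUB1, BUB1B, BUB3, MAD2L1, TTK, CDC20, UBE2C, PTTG1 and ESPL1, the kinetochore genes CENPA, CENPE, CENPI, NDC80 and NUF2, the spindle and cytokinesis genes KIF11, KIF20A, KIF23, KIF2C, KIF4A, PRC1, ANLN, ECT2, HMMR and DLGAP5, the chromosome genes TOP2A and MKI67, and the transcription factors FOXM1 and MYBL2. All 40 were found among 56609 symbols, and all 40 passed the filter on low counts that left 21698 genes for testing.

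RNA was sequenced from A375, an established human melanoma cell line, either unedited (wild type) or carrying a CRISPR/Cas9 knockout of MAPKAPK2. That gene encodes MK2, a kinase downstream of p38. Cells of each genotype received 500 nM JQ1, which displaces BET bromodomain proteins from acetylated chromatin, or the solvent DMSO, for 48 h. Each of the 4 groups had 3 replicates, and the purpose stated for the series was to learn how losing MAPKAPK2 favours resistance to BET inhibitors. Whether the knockout cells are a single clone or a pool, and whether replicates were grown separately, is not given in the sources used here, so p-values measure the spread between these samples, which may be technical.

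Entry into mitosis is driven by cyclin-dependent kinase 1 bound to cyclin A or B, after CDC25 phosphatases remove its inhibitory phosphates. Polo-like and Aurora kinases then build the spindle, the spindle checkpoint holds the cell until every kinetochore is attached, and the anaphase-promoting complex with CDC20 starts chromosome separation. The mRNAs of most of these proteins rise together in G2 and fall after division: the DREAM complex represses the genes in quiescent and arrested cells, and the MYBL2-MuvB complex and FOXM1 activate them in cycling cells, through a promoter element called the cell cycle genes homology region (CHR), often beside CCAAT boxes bound by NF-Y.

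Libraries held between 25316899 and 34594295 estimated counts, and the 40 genes together took 0.368% to 0.543% of a library. MAPKAPK2 was lower in the knockout, at 11.1 to 15.7 counts per 1000000 counts (CPM) in its 6 libraries against 87.9 to 119.7 CPM in the 6 wild-type ones. The melanoma markers SOX10 (389 CPM or more), CSPG4, MITF, S100B and S100A1 were expressed in every library, while the pigment genes PMEL and MLANA stayed at or below 1.45 CPM, and TYR and DCT were below 0.5 CPM. Of 9 markers of keratinocytes, other epithelia, leukocytes and endothelium, 7 were below 0.5 CPM in every library, CDH1 and KRT1 among them at 0, while KRT14 reached 2.09 CPM and PECAM1 1.29 CPM. Knockout JQ1 replicate 3 stood apart from its fellow replicates: chi-square per degree of freedom over genes was 27.9 and 29.5 against replicates 1 and 2, and 3.5 to 8.04 in the other replicate pairs. It is kept in every comparison, and members whose call changed without it are named, some of them with values.

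The members' promoters were read first for the elements named above. RefSeq promoter windows of GRCh38.p14, from 250 bases before to 50 after the first listed start, matched 33 of the 40 members. No window matched UBE2C, BUB3, AURKA, TPX2, TTK, FOXM1 or BIRC5. A CHR, searched as TTTGAA or TTCGAA on both strands, was found in 22 of the 33 windows (66.7%) and in 16.6% of the windows of all 27305 symbols. CCAAT, searched on both strands, was found in 66.7% of the members' windows and in 35.7% of all, and both elements in 51.5% and 6.58%. A reversed CCAAT and a CHR can share their end base. The E2F sites TTTCCCGC and TTTGGCGC were found in 1 of the 33 windows (3.03%, against 2.31% of all), and the E-box CACGTG in 5 (15.2%, against 7.43%). For comparison, a list of 24 S-phase genes had 21 windows, of which 71.4% held an E2F site, 71.4% CCAAT and 9.52% a CHR. CCAAT was thus as frequent there as in the members. A list of other G2 and mitosis genes, described below, had 67 windows. Of these 65.7% held a CHR, 67.2% CCAAT and 47.8% both, so neither element is particular to the 40.

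The 150 bases before the start are shown for members whose responses to JQ1 differed, to let the shared letters be seen beside the values below; capitals mark each CHR and each CCAAT or its reverse. They come from chr10:60778181-60778330 (plus strand) for CDK1, chr5:69167000-69167149 (plus) for CCNB1, chr15:59104996-59105145 (plus) for CCNB2, chr16:23678739-23678888 (plus) for PLK1, chr5:138338356-138338505 (minus) for CDC25C, chr5:163460482-163460631 (plus) for HMMR and chr1:43358831-43358980 (plus) for CDC20.
HMMR: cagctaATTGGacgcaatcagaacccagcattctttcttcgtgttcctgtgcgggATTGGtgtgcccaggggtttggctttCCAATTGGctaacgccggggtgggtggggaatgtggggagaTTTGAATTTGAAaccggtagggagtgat
CDC25C: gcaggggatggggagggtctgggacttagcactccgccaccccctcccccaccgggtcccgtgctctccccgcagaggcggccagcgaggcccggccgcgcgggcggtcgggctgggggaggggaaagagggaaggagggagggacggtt
CDC20: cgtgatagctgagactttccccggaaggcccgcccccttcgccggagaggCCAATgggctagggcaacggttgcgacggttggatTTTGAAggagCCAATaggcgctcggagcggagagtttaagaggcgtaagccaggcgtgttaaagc
CDK1: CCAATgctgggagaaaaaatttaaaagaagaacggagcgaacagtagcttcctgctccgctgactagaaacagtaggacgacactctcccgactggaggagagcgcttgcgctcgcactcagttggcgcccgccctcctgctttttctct
CCNB1: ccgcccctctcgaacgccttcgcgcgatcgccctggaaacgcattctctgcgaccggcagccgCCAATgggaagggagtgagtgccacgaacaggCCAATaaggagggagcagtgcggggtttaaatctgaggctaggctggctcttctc
CCNB2: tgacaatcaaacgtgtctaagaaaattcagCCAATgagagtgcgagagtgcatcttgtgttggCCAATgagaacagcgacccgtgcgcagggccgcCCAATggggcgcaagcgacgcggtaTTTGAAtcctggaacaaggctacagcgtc
PLK1: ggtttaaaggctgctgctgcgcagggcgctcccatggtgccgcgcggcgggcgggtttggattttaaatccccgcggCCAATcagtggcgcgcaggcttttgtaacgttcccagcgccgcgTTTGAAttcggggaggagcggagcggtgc
HMMR and CDC25C fell with JQ1, CDC20 rose, and the call was not reached for CDK1, CCNB1, CCNB2 or PLK1, as the values below show. HMMR, CDC20, CCNB2 and PLK1 hold both elements in this stretch, CCNB1 and CDK1 hold CCAAT, and CDC25C holds none of these letters here, which says nothing of the factors that bind it. The CDC25C stretch lies just outside the outermost annotated end of the gene. Only the first listed start of each gene was searched, so a CHR at another CDC25C start would be missed. GENCODE transcripts of HMMR, CDC20, CCNB1, CCNB2 and PLK1 begin upstream of the RefSeq start used, within or before the stretch. CDK1 has a CHR just beyond the stretch, at position -161 from the start. A CHR was present in 8 of 11 windows of members that fell with JQ1 in either genotype (72.7%), in 1 of 3 windows of members that rose (33.3%) and in 13 of 19 windows of members that were not called (68.4%). HMMR and CDC20 were added to the set after their values were seen.

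With JQ1 the 40 genes were called in both directions, with more falls than rises. In wild-type cells 12 fell (30%, against 16.2% of all genes), 3 rose (7.5%, against 16.9%) and 25 did not pass the test. The hyaluronan-mediated motility receptor HMMR, a spindle protein, fell most, with a log2 fold change of -0.53. The phosphatase gene CDC25C followed at -0.47, while its sister CDC25B rose by 0.32 and the anaphase activator CDC20 by 0.38. Knockout cells gave nearly the same counts, with 12 lower (30%, against 17.8% of all genes), 4 higher (10%, against 16.7%) and 24 not called. In bulk RNA, fewer cells in G2 or mitosis and less of these mRNAs per cell cannot be told apart.

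The share of members called was close to that of all genes, but lower calls outnumbered higher ones among the members and were nearly even with them over all genes. In edgeR's quasi-likelihood test at an adjusted p of 0.05, 15 of the 40 members (37.5%) were called in wild type and 33.1% of all genes tested, and in knockout 16 of 40 (40%) against 34.4%. Lower calls made up 30% of the members in each genotype, against 16.2% of all genes in wild type and 17.8% in knockout. Higher calls made up 7.5% and 10% of the members, against 16.9% and 16.7%. Among genes at a mean of 5 CPM or more, refitted alone, 18 members were called in wild type (45%, against 48.4% of such genes) and 19 in knockout (47.5%, against 51.9%). All 3 JQ1 libraries lay below all 3 DMSO libraries for 19 members in wild type (47.5%, against 26% of all genes) and 16 in knockout (40%, against 22%). The median log2 fold change of the members was -0.14 in wild type and -0.12 in knockout, against -0.03 and -0.0035 over all genes tested, and 0.05 and 0.04 over genes at 5 CPM or more.

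The number of calls in each direction depended on the scaling. With library totals in place of TMM factors, 1 member rose and 22 fell in wild type, and 1 rose and 17 fell in knockout. That scaling moved the median of all genes by -0.128 and -0.115, and relative to all genes the members' median was then -0.111 and -0.12, against -0.11 and -0.119 with TMM. In wild type the count fell to 8 without wild-type DMSO replicate 2. In knockout it fell to 9 without knockout DMSO replicate 1.

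**Figure D1:**
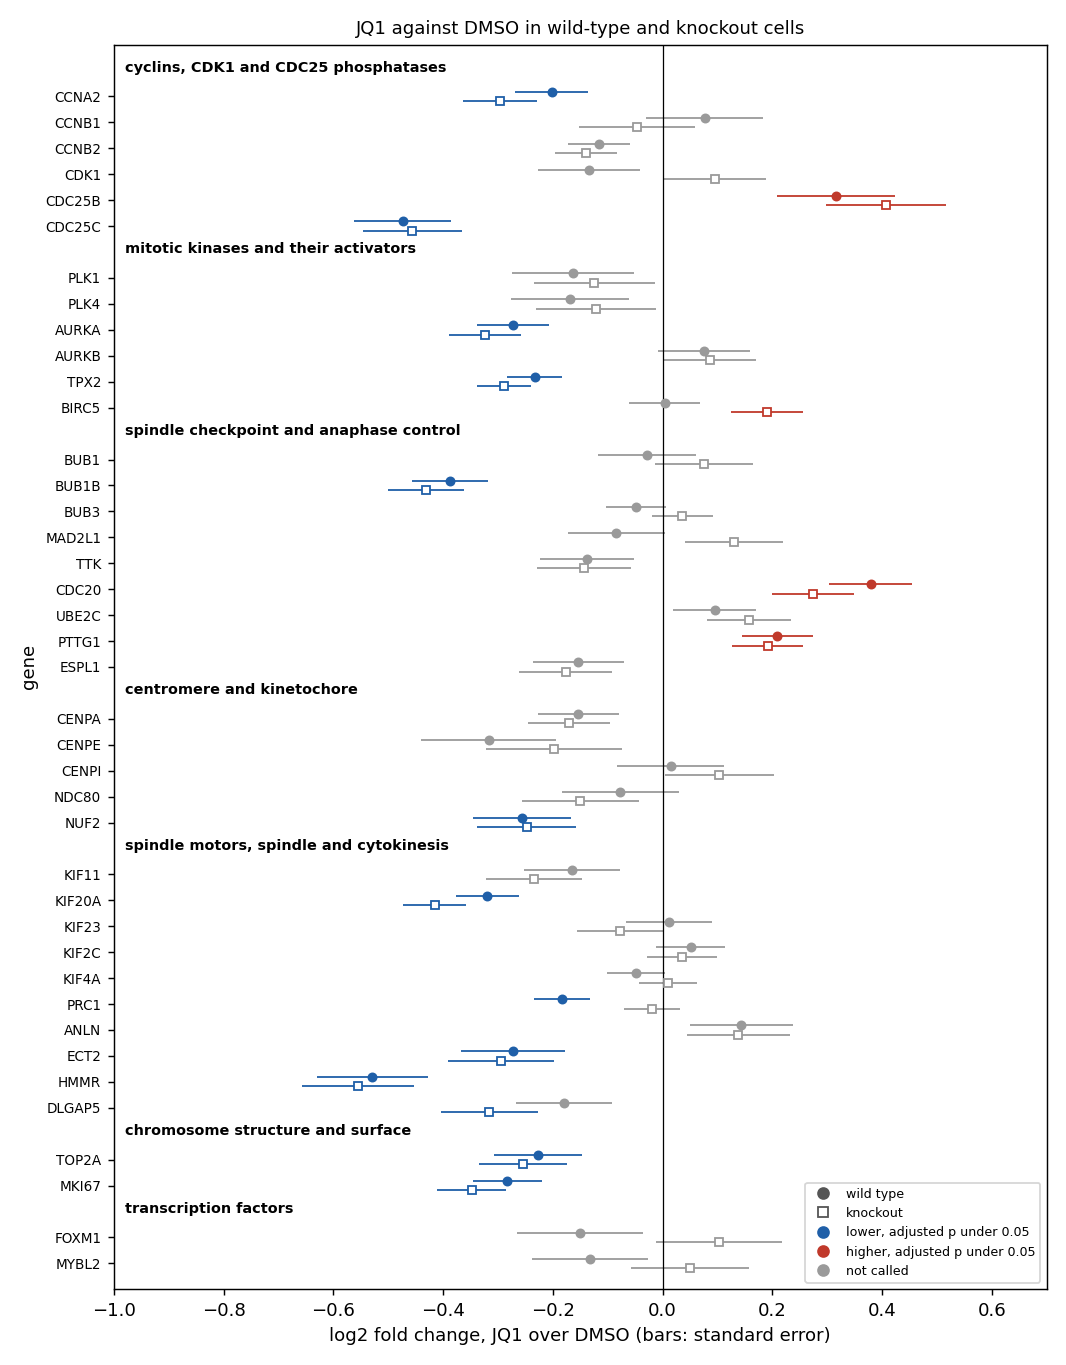
Log2 fold change of JQ1 over DMSO (horizontal axis) for the 40 genes, grouped by role, in wild-type (circles) and knockout cells (squares), with bars of 1 standard error; blue marks genes called lower and red genes called higher at an adjusted p under 0.05. HMMR lies farthest to the left in both genotypes, at -0.53 and -0.56, and CDC25B and CDC20 lie farthest to the right.

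Among the 6 cyclins, CDK1 and CDC25 phosphatases, 2 fell and 1 rose in each genotype. CDC25C, which removes the inhibitory phosphates of CDK1 at mitotic entry and lies at chr5:138285265-138338355, read 22.6, 23.6 and 21.9 CPM in wild-type cells with DMSO (replicates 1 to 3 in order, here and below), 14.6, 18.6 and 16.0 with JQ1, 21.2, 19.7 and 21.4 in knockout cells with DMSO and 15.9, 14.8 and 14.7 with JQ1. The JQ1 libraries were all lower than the DMSO libraries in both genotypes, at log2 fold changes of -0.47 (SE 0.09, adjusted p = 0.000754) in wild type and -0.46 (SE 0.09, adjusted p = 0.00105) in knockout. CCNA2, the cyclin A of somatic cells, was at 115, 113 and 109.8 CPM in wild-type DMSO and 95.5, 97.2 and 100.3 CPM with JQ1, and in the knockout at 114, 102 and 105 CPM with DMSO and 92.8, 91.1 and 78.7 CPM with JQ1. Its ranges did not overlap in either genotype, and it fell with log2 fold changes of -0.20 (SE 0.07, adjusted p = 0.0304) and -0.30 (SE 0.07, adjusted p = 0.00297).

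CDC25B, the phosphatase that starts CDK1 activation at the centrosome, went the other way. Its libraries read 101, 113 and 111 CPM in wild-type cells with DMSO, 148, 136 and 121 with JQ1, 82.8, 93.2 and 97.9 in knockout cells with DMSO and 109, 109 and 145 with JQ1. Every JQ1 library was above every DMSO library of its genotype, and the rise was 0.32 (SE 0.11, adjusted p = 0.0353) and 0.41 (SE 0.11, adjusted p = 0.009). The highest knockout value is that of replicate 3, the library that stood apart, and without it the knockout rise was 0.26 (SE 0.0832, adjusted p = 0.0268).

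The core mitotic driver did not pass the test with JQ1 when all libraries were fitted. CDK1, at chr10:60778331-60794852, was at 105, 102 and 99.8 CPM in wild-type cells with DMSO, 90.3, 89.4 and 100.4 with JQ1, 95.3, 82.5 and 87.8 in knockout cells with DMSO and 107, 98.5 and 79.0 with JQ1. Its ranges overlapped in both genotypes (log2 fold change -0.13, SE 0.09, adjusted p = 0.3; and 0.096, SE 0.09, adjusted p = 0.472). Without knockout JQ1 replicate 3, the lowest of its 12 libraries, CDK1 was called higher in knockout (0.21, SE 0.068, adjusted p = 0.0233). CCNB1, the main mitotic cyclin, was at 72.6, 69.7 and 71.4 CPM in wild-type DMSO libraries, 74.4, 76.4 and 74.6 in those with JQ1, 72.3, 67.4 and 72.3 in knockout DMSO libraries and 78.3, 74.6 and 52.7 in those with JQ1. The lowest of these 12 values is again knockout JQ1 replicate 3, and the CCNB1 change was 0.077 (SE 0.11, adjusted p = 0.627) and -0.046 (SE 0.11, adjusted p = 0.786). CCNB2 was at 89.1, 87.9 and 88.1 CPM in wild-type DMSO and 82.6, 79.7 and 82.3 CPM with JQ1, and in the knockout at 84.6, 81.0 and 86.5 CPM with DMSO and 78.6, 79.5 and 70.8 CPM with JQ1. The JQ1 libraries of CCNB2 were all lower in each genotype, but the change of -0.12 (SE 0.06, adjusted p = 0.133) and -0.14 (SE 0.06, adjusted p = 0.0727) did not pass the test.

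**Figure D2:**
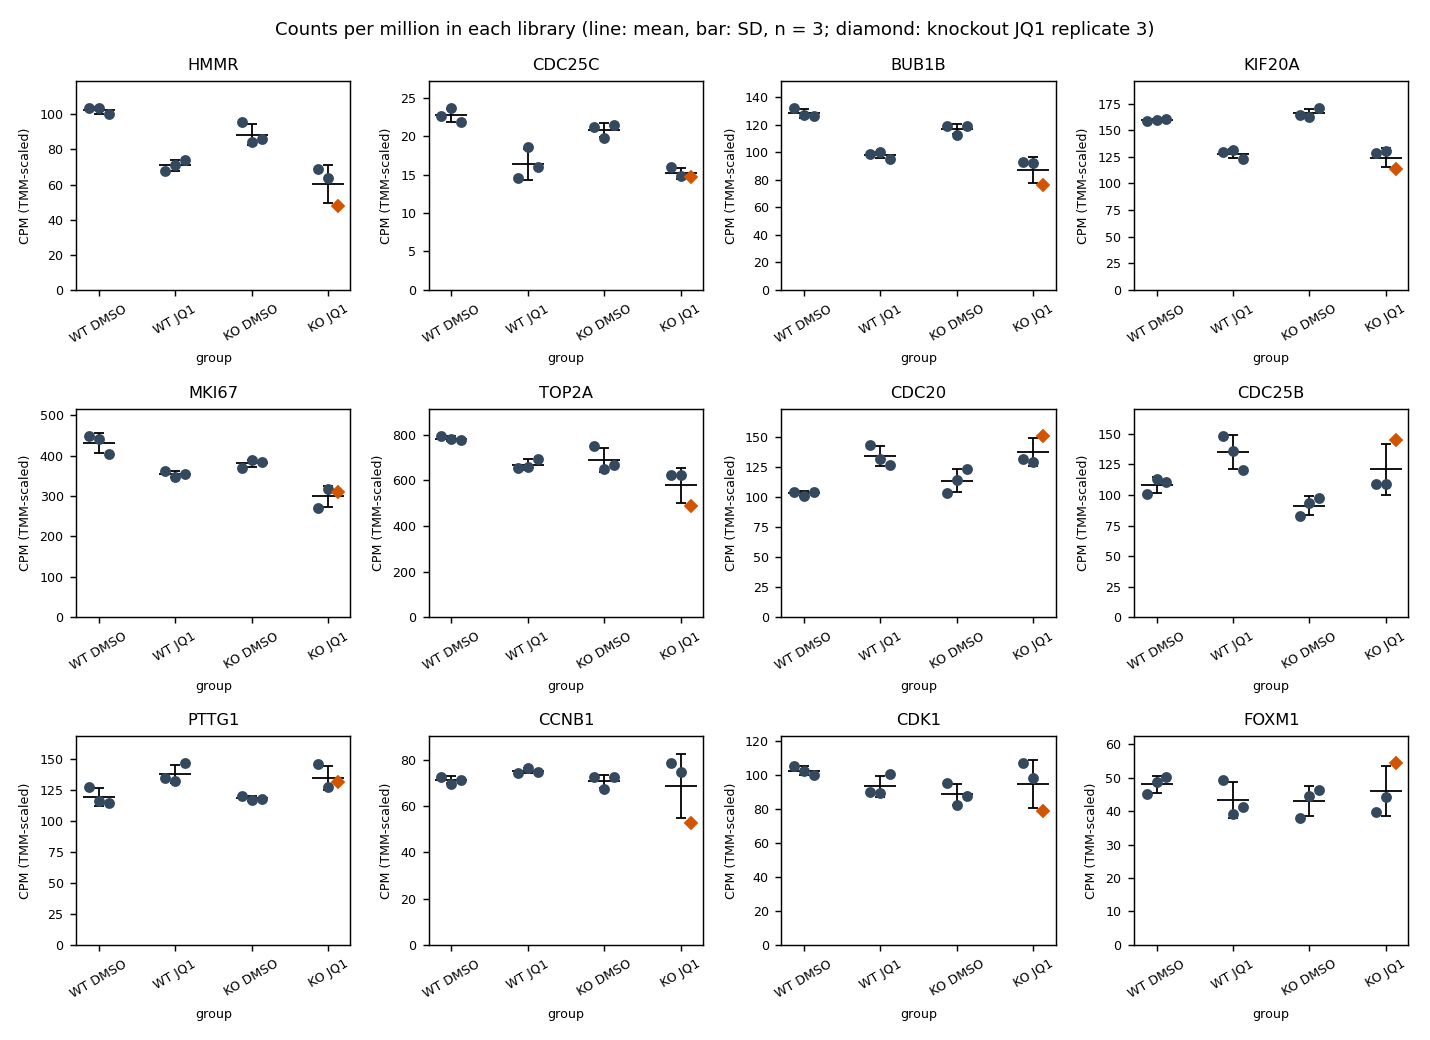
TMM-scaled CPM (vertical axis, from 0) of 12 of the genes in each library of the 4 groups, with the mean and SD of 3 replicates; orange diamonds mark knockout JQ1 replicate 3. HMMR, CDC25C, BUB1B and KIF20A are lower in all JQ1 libraries of both genotypes, CDC20, CDC25B and PTTG1 are higher in all of them, and CCNB1, CDK1 and FOXM1 overlap within the knockout.

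Of the 6 kinases and activators, AURKA and its activator TPX2 fell in both genotypes and BIRC5 rose in knockout cells. AURKA, the Aurora kinase of centrosomes and spindle poles, was at 81.5, 84.0 and 79.2 CPM in wild-type cells with DMSO, 66.9, 68.2 and 67.3 with JQ1, 85.2, 75.3 and 79.6 in knockout cells with DMSO and 63.9, 69.0 and 59.0 with JQ1, a fall with log2 fold changes of -0.27 (SE 0.07, adjusted p = 0.00483) and -0.32 (SE 0.07, adjusted p = 0.0014). TPX2, which holds AURKA active on spindle microtubules, was at 246, 244 and 248 CPM in wild-type DMSO and 209.7, 206 and 213 CPM with JQ1, and in the knockout at 228, 222 and 233 CPM with DMSO and 196, 177 and 187 CPM with JQ1. JQ1 and DMSO did not overlap for either gene, and TPX2 fell with log2 fold changes of -0.23 (SE 0.05, adjusted p = 0.00203) and -0.29 (SE 0.05, adjusted p = 0.000343).

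The passenger complex genes AURKB and BIRC5 were not among those that fell. AURKB, the kinase that corrects wrong microtubule attachments, was at 36.6, 36.6 and 37.7 CPM in wild-type DMSO libraries, 42.2, 39.5 and 35.2 in those with JQ1, 36.8, 41.8 and 43.2 in knockout DMSO libraries and 41.4, 40.9 and 47.1 in those with JQ1, with a change of 0.076 (SE 0.08, adjusted p = 0.532) and 0.087 (SE 0.08, adjusted p = 0.47). BIRC5 (survivin), the subunit that brings the complex to centromeres, was at 85.9, 83.4 and 88.8 CPM in wild-type DMSO and 91.8, 85.6 and 81.4 CPM with JQ1, and in the knockout at 82.8, 75.2 and 83.9 CPM with DMSO and 95.1, 86.8 and 94.1 CPM with JQ1. It overlapped in wild type (0.0037, SE 0.06, adjusted p = 0.974) and rose without overlap in knockout (0.19, SE 0.06, adjusted p = 0.0336). The difference between these responses, tested as an interaction, was 0.19 (SE 0.09, adjusted p = 0.618).

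PLK1, the polo-like kinase that acts from mitotic entry to cytokinesis, was at 67.6, 70.9 and 72.7 CPM in wild-type cells with DMSO, 66.7, 63.0 and 59.0 with JQ1, 67.1, 79.5 and 83.6 in knockout cells with DMSO and 64.8, 60.7 and 85.3 with JQ1. Wild-type JQ1 lay below wild-type DMSO, the knockout groups overlapped, and the change of -0.16 (SE 0.11, adjusted p = 0.287) and -0.12 (SE 0.11, adjusted p = 0.43) did not pass the test. The highest knockout value is replicate 3 with JQ1, and without it PLK1 was called lower in knockout (-0.29, SE 0.0825, adjusted p = 0.0137). PLK4, which starts centriole duplication, ranged from 26.9 to 41.6 CPM over the 12 libraries and was not called with JQ1.

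In the spindle checkpoint and anaphase group JQ1 gave calls in opposite directions: BUB1B fell and the anaphase genes CDC20 and PTTG1 rose in both genotypes. BUB1B encodes BUBR1, the checkpoint protein that helps to hold CDC20 in check. It was at 132, 127 and 126 CPM in wild-type DMSO and 99.0, 99.9 and 95.4 CPM in wild-type JQ1, and in the knockout at 119, 113 and 119 CPM with DMSO and 92.8, 91.9 and 76.1 CPM with JQ1. Its log2 fold changes were -0.39 (SE 0.07, adjusted p = 0.00056) and -0.43 (SE 0.07, adjusted p = 0.00021), with no overlap. CDC20, at chr1:43358955-43363203, rose from 104, 101 and 104 CPM to 144, 132 and 127 CPM in wild type and from 104, 114 and 123 to 132, 129 and 151 CPM in knockout. All JQ1 libraries were above the DMSO libraries of their genotype (0.38, SE 0.08, adjusted p = 0.00126; and 0.27, SE 0.08, adjusted p = 0.0108).

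PTTG1 encodes securin, the inhibitor that is destroyed to free separase. Its mean was 119.6 ± 7.05 CPM in wild-type cells with DMSO, 138 ± 7.48 with JQ1, 118 ± 1.82 in knockout cells with DMSO and 135 ± 9.75 with JQ1 (SD, n = 3 each), a rise of 0.21 (SE 0.06, adjusted p = 0.0221) and 0.19 (SE 0.06, adjusted p = 0.0325). BUB1, the kinase that recruits checkpoint proteins to kinetochores, was at 79.6, 85.2 and 86.0 CPM in wild-type DMSO libraries, 85.5, 79.8 and 80.5 in those with JQ1, 74.0, 66.4 and 76.8 in knockout DMSO libraries and 88.6, 74.0 and 66.4 in those with JQ1. Its JQ1 and DMSO ranges overlapped in both genotypes (-0.029, SE 0.09, adjusted p = 0.843; and 0.075, SE 0.09, adjusted p = 0.568). The remaining members of this group, BUB3, MAD2L1, TTK, UBE2C (the ubiquitin-conjugating enzyme of the anaphase-promoting complex) and ESPL1 (separase), were not called in either genotype, with log2 fold changes from -0.15 to 0.09 in wild type and from -0.18 to 0.16 in knockout.

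Of the 5 centromere and kinetochore genes, NUF2 alone was called. NUF2, the partner of NDC80 in the microtubule-binding complex, fell with log2 fold changes of -0.26 (SE 0.09, adjusted p = 0.0382) and -0.25 (SE 0.09, adjusted p = 0.0454), from a mean of 78.3 ± 1.19 to 65.5 ± 4.06 CPM in wild type and from 69.3 ± 3.37 to 58.5 ± 8.79 CPM in knockout (SD, n = 3). CENPA, the histone H3 variant that marks centromeres, was at 25.1, 23.9 and 25.4 CPM in wild-type DMSO libraries, 24.2, 21.8 and 20.9 in those with JQ1, 21.4, 22.9 and 24.1 in knockout DMSO libraries and 20.1, 20.4 and 20.3 in those with JQ1. Its change of -0.15 (SE 0.07, adjusted p = 0.132) and -0.17 (SE 0.08, adjusted p = 0.0974) did not pass the test, although the knockout groups did not overlap. NDC80, the kinesin gene CENPE and CENPI were not called, and CENPI was the lowest member of all, at 7.53 to 8.80 CPM.

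The spindle and cytokinesis genes include HMMR, the member that fell most when all libraries were fitted. In each genotype 4 of 10 fell and none rose. HMMR, at chr5:163460203-163491945, was at 103, 104 and 100 CPM in wild-type cells with DMSO, 67.6, 71.2 and 73.9 with JQ1, 95.4, 84.4 and 85.7 in knockout cells with DMSO and 69.1, 64.0 and 47.9 with JQ1. The groups did not overlap, and the log2 fold changes were -0.53 (SE 0.10, adjusted p = 0.000953) and -0.56 (SE 0.10, adjusted p = 0.000628). The lowest HMMR value is that of knockout JQ1 replicate 3. Without it the knockout change was -0.41 for HMMR, still called, and -0.43 for CDC25C, which then fell more. KIF20A, the kinesin MKLP2 that carries the passenger complex to the midzone, was at 159, 159.5 and 160.2 CPM in wild-type DMSO and 129, 131 and 123 CPM with JQ1, and in the knockout at 164, 163 and 171 CPM with DMSO and 128, 131 and 114 CPM with JQ1, with no overlap. It fell with log2 fold changes of -0.32 (SE 0.06, adjusted p = 0.000586) and -0.42 (SE 0.06, adjusted p = 5.51e-05).

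ECT2, the exchange factor that activates RHOA at the cleavage plane, fell in both genotypes (-0.27, SE 0.10, adjusted p = 0.0398; and -0.29, SE 0.10, adjusted p = 0.0276). DLGAP5, a microtubule stabilizer, fell in knockout (-0.32, SE 0.09, adjusted p = 0.0118) and lay at -0.18 (SE 0.09, adjusted p = 0.134) in wild type, and the interaction was -0.14 (SE 0.12, adjusted p = 0.827). PRC1, which crosslinks the microtubules of the midzone, was at 202, 206 and 202 CPM in wild-type cells with DMSO, 183, 178 and 177 with JQ1, 189, 179 and 186 in knockout cells with DMSO and 194, 178 and 175 with JQ1. It fell in wild type without overlap (-0.18, SE 0.05, adjusted p = 0.0127) and overlapped in knockout (-0.018, SE 0.05, adjusted p = 0.825). The interaction of PRC1 had the smallest p of the 40 genes but was not called (0.16, SE 0.07, adjusted p = 0.563).

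The other motors were not called with JQ1 when all libraries were fitted. KIF11, the kinesin Eg5 that pushes spindle poles apart, was at 211, 209 and 207 CPM in wild-type cells with DMSO, 176, 184 and 199 with JQ1, 198, 169 and 178 in knockout cells with DMSO and 166, 168 and 129.9 with JQ1. All its JQ1 libraries lay below the DMSO libraries of their genotype, with a change of -0.16 (SE 0.09, adjusted p = 0.173) and -0.23 (SE 0.09, adjusted p = 0.0529). KIF23, the kinesin MKLP1 of the central spindle, was at 112, 109.5 and 104 CPM in wild-type DMSO libraries, 107, 109.6 and 112 in those with JQ1, 99.2, 88.5 and 93.8 in knockout DMSO libraries and 91.8, 98.3 and 76.9 in those with JQ1, and overlapped in both genotypes (0.012, SE 0.08, adjusted p = 0.927; and -0.078, SE 0.08, adjusted p = 0.493). ANLN (anillin), the scaffold of the contractile ring, was at 322, 318 and 314 CPM in wild-type DMSO libraries, 345, 349 and 359.5 in those with JQ1, 279, 241 and 265 in knockout DMSO libraries and 323, 308 and 233 in those with JQ1. Wild-type JQ1 lay above wild-type DMSO for ANLN, at 0.14 (SE 0.09, adjusted p = 0.267), and the knockout groups overlapped (0.14, SE 0.09, adjusted p = 0.291). Without knockout JQ1 replicate 3 ANLN was called higher in both genotypes (0.15, SE 0.0494, adjusted p = 0.0291; and 0.27, SE 0.0554, adjusted p = 0.00122). KIF2C, which depolymerizes microtubules, and KIF4A, a chromosome-bound kinesin, lay between -0.05 and 0.05 in both genotypes and were not called.

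Both chromosome genes were called lower in both genotypes in the main fit, but the wild-type call of TOP2A was lost in DESeq2 and in limma. TOP2A, the topoisomerase that untangles sister chromatids, was the most counted member, with 794, 779.5 and 774 CPM in wild-type cells with DMSO, 654, 658 and 695 with JQ1, 749.6, 651 and 665 in knockout cells with DMSO and 621, 622 and 489 with JQ1. MKI67, which encodes the proliferation marker Ki-67, a coat of mitotic chromosomes, had 449, 441 and 404 CPM in wild-type DMSO libraries, 361, 347 and 356 in those with JQ1, 370.1, 389 and 383 in knockout DMSO libraries and 269.8, 317 and 311 in those with JQ1. No JQ1 library reached the DMSO range of its genotype. The log2 fold changes were -0.23 (SE 0.08, adjusted p = 0.0424) and -0.25 (SE 0.08, adjusted p = 0.0234) for TOP2A, and -0.28 (SE 0.06, adjusted p = 0.00275) and -0.35 (SE 0.06, adjusted p = 0.000523) for MKI67.

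The transcription factors that activate this gene group were not called. FOXM1 was at 45.2, 48.5 and 50.3 CPM in wild-type cells with DMSO, 49.3, 39.3 and 41.1 with JQ1, 37.9, 44.5 and 46.3 in knockout cells with DMSO and 39.6, 44.2 and 54.2 with JQ1, and MYBL2 (B-MYB) at 70.7, 73.0 and 74.9 CPM in wild-type DMSO libraries, 71.5, 66.0 and 62.0 in those with JQ1, 58.3, 69.9 and 68.5 in knockout DMSO libraries and 64.6, 57.4 and 81.2 in those with JQ1. JQ1 and DMSO overlapped for both genes in both genotypes. The log2 fold changes were -0.15 (SE 0.12, adjusted p = 0.349) and 0.10 (SE 0.12, adjusted p = 0.541) for FOXM1, and -0.13 (SE 0.11, adjusted p = 0.38) and 0.05 (SE 0.11, adjusted p = 0.766) for MYBL2. In knockout JQ1 the highest value of each was replicate 3, and without it the FOXM1 change in knockout was -0.033 (SE 0.102, adjusted p = 0.85).

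The JQ1 responses of the genotypes come from libraries they do not share, although all 12 libraries share an estimate of spread. Called in both were 14 members, all in the same direction. The overlap over all genes was not counted, so it is not read as particular to the members. These 14 are 93.3% of the wild-type calls and 87.5% of the knockout calls: CCNA2, CDC25C, AURKA, TPX2, BUB1B, NUF2, KIF20A, ECT2, HMMR, TOP2A and MKI67 fell, and CDC25B, CDC20 and PTTG1 rose. PRC1 was called in wild type alone, BIRC5 and DLGAP5 in knockout alone, and 23 members in neither. Across the 40 genes Pearson's r of the responses was 0.89, a description of genes that share scaling and base composition and are not independent replicates. For CDC25C, AURKA, TPX2, BUB1B, KIF20A, HMMR and MKI67 the call held in both genotypes under all 22 alternative analyses.

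The other calls were less stable. In wild type CCNA2, CDC25B, NUF2, ECT2 and TOP2A lost the call without any one of the wild-type DMSO replicates and without wild-type JQ1 replicate 1 or 2, ECT2 and TOP2A also without replicate 3. CCNA2, NUF2, ECT2 and TOP2A lost it too without knockout DMSO replicate 3, NUF2 and ECT2 without replicate 1 or 2, and TOP2A without replicate 2. PTTG1 lost it without wild-type DMSO replicate 2 or 3 or wild-type JQ1 replicate 3, and PRC1 without wild-type DMSO replicate 2. Other settings ended wild-type calls as well. TOP2A lost it in DESeq2, in limma, with DESeq2 size factors, with factors from the authors' normalized signal and with offsets for GC content and length. CCNA2 lost it in limma, with the authors' factors and with no filter on low counts. CDC25B lost it with library totals and among genes at 5 CPM or more, and PRC1 with no filter. In knockout the calls of CDC20, PTTG1, BIRC5, NUF2, ECT2, DLGAP5 and TOP2A were lost without knockout DMSO replicate 1. Leaving out knockout JQ1 replicate 3 ended those of BIRC5 (0.18, adjusted p = 0.0529), NUF2 (-0.13, adjusted p = 0.141) and TOP2A (-0.15, adjusted p = 0.0534), while ECT2 moved to -0.16 and DLGAP5 to -0.20 and stayed called. PTTG1 and NUF2 also lost theirs without knockout DMSO replicate 2 or 3, BIRC5 without replicate 2, ECT2 without replicate 3, PTTG1 and BIRC5 without knockout JQ1 replicate 1, and NUF2 without replicate 2. Wild-type libraries, which enter through the shared spread and scaling, ended the knockout call of NUF2 (every DMSO replicate, JQ1 replicates 1 and 2), BIRC5 (DMSO replicate 1) and PTTG1 (DMSO replicate 2). With library totals CDC20 and BIRC5 lost the knockout call, and with only the knockout groups fitted CDC20, BIRC5 and TOP2A did.

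Calls were also gained when a library was left out. Without knockout JQ1 replicate 3, CDK1 and ANLN were called higher and PLK1 and ESPL1 lower in knockout, ESPL1 at -0.23 (SE 0.0846, adjusted p = 0.0444). In wild type, where that library enters through the shared spread and scaling, CCNB2 (-0.11, adjusted p = 0.0477), CENPE (-0.31, adjusted p = 0.0141), KIF11 (-0.16, adjusted p = 0.0338) and DLGAP5 (-0.18, adjusted p = 0.0207) were then called lower and ANLN higher. The counts became 20 in wild type and 17 in knockout. CENPE was also called in wild type without wild-type DMSO replicate 3, and KIF11 in knockout without knockout DMSO replicate 2 or knockout JQ1 replicate 1 or 2.

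Loss of MAPKAPK2 without drug came with slightly lower values for most members, none of which passed the test over all genes. In DMSO 36 of 40 log2 fold changes of knockout over wild type were below 0, with a median of -0.13, against -0.0049 over all genes tested and 0.02 over genes at 5 CPM or more. They ran from -0.28 for ANLN to 0.14 for CDC20. The values above 0 belonged to PLK1 (0.12, SE 0.11, adjusted p = 0.611), AURKB (0.14, SE 0.08, adjusted p = 0.42), CDC20 (0.14, SE 0.08, adjusted p = 0.335) and KIF20A (0.055, SE 0.06, adjusted p = 0.673). All 3 knockout libraries lay below all 3 wild-type libraries for 20 members (50%), against 14.7% of all genes.

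The number of calls depended on the estimate of spread. Members called numbered 0 of 40 by edgeR, against 7.92% of all genes (3.47% higher and 4.44% lower), and 0 by DESeq2 and by limma. In edgeR 13 of 40 had an unadjusted p under 0.05. Of all genes tested 4274 of 21698 did, and of those at 5 CPM or more 2795 of 11253. Knockout JQ1 replicate 3 is in neither group of this comparison, but it enters the standard error, since all 12 libraries share an estimate of spread. Without that library 11 members were called lower, and in the fit of the DMSO groups alone 12 were. Of all genes 11.9% and 12.7% were then called in either direction, so these shares are no background for lower calls alone. The 11 were CDK1, CDC25B, UBE2C, KIF11, KIF23, PRC1, ANLN, ECT2, HMMR, TOP2A and MKI67. Without knockout JQ1 replicate 1 the count was 1, and without any other library it was 0.

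ANLN, at chr7:36389806-36453791, had the largest change and its values given above, 314 to 322 CPM in wild-type DMSO and 241 to 279 in knockout DMSO, did not overlap. Its log2 fold change was -0.28 (SE 0.09, adjusted p = 0.0897) with all libraries. Without knockout JQ1 replicate 3 the change was again -0.28, now with an SE of 0.05 and an adjusted p of 0.00131, and over all alternatives the adjusted p ran from 0.00131 to 0.342. CDK1, KIF11, KIF23, TOP2A, MKI67, HMMR and CDC25B likewise had every knockout DMSO library below every wild-type DMSO library, with log2 fold changes between -0.25 (CDC25B) and -0.18 (MKI67). CCNB1, BUB3, PTTG1 and KIF2C lay within 0.02 of 0.

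**Figure D3:**
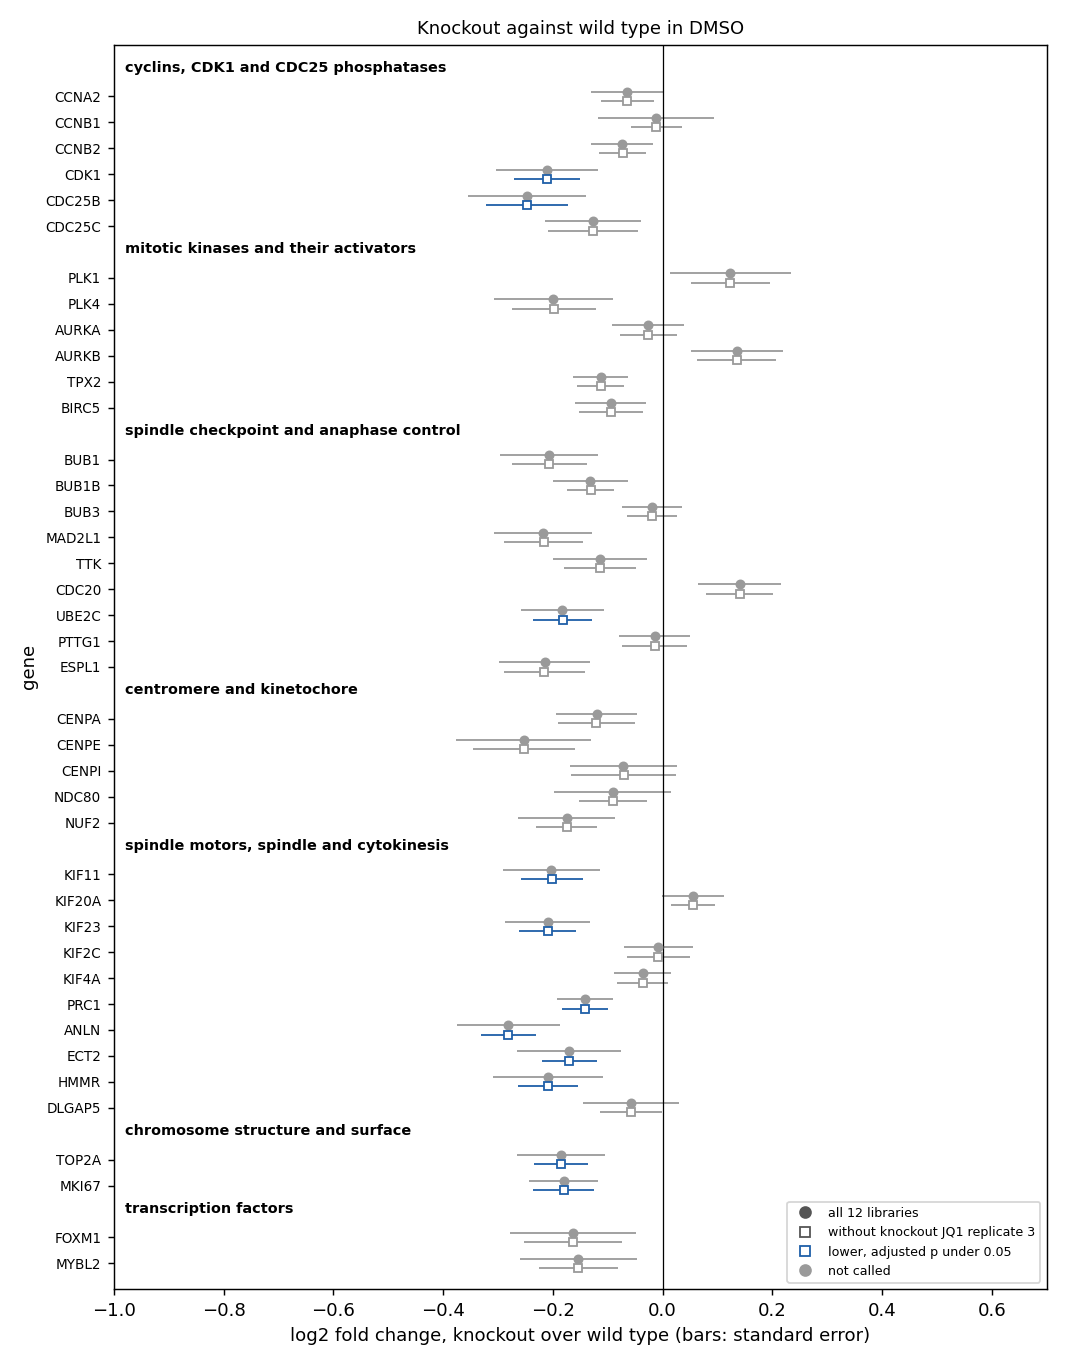
Log2 fold change of knockout over wild type in DMSO (horizontal axis) for the 40 genes by role, from the fit of all 12 libraries (circles) and without knockout JQ1 replicate 3 (squares), with bars of 1 standard error; blue squares are the 11 genes called lower without that library. The points of each pair coincide and the bars of most are shorter without it.

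With JQ1 in both genotypes, 3 of 40 members were lower in the knockout and none higher. That is 7.5% of the members, against 8.57% of all genes (3.01% higher and 5.56% lower). The log2 fold changes were -0.30 (SE 0.08, adjusted p = 0.0278) for KIF23, -0.25 (SE 0.06, adjusted p = 0.024) for MKI67 and -0.17 (SE 0.05, adjusted p = 0.0484) for TPX2, and in each case the knockout JQ1 libraries lay below all wild-type JQ1 libraries in the values given above. Such a lack of overlap on the lower side was seen for 11 members (27.5%), against 12.4% of all genes. The median of the members was -0.12, and -0.04 without knockout JQ1 replicate 3.

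The 3 calls moved with single libraries. They numbered 6 without knockout JQ1 replicate 3 (CDC25B, TPX2, UBE2C, ESPL1, KIF23 and MKI67), 0 without wild-type JQ1 replicate 1 or 2, and 1 without wild-type JQ1 replicate 3, knockout DMSO replicate 3 or any one wild-type DMSO replicate. No member was called in the fit of the JQ1 groups alone. MKI67 lost its call without knockout JQ1 replicate 1 or any one wild-type JQ1 replicate. For KIF23 this happened without any one wild-type library or knockout DMSO replicate 3, and for TPX2 without any one library other than knockout JQ1 replicates 1 and 3. TPX2 also lost its call in limma, with DESeq2 size factors, with the authors' factors, with no filter on low counts and with the replicate block.

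The test of the interaction called no member as responding differently to JQ1 in the genotypes. Calls were 0 of 40 (0.134% of all genes were), and DESeq2, limma and every other alternative run gave 0 as well. In edgeR 1 of 40 had an unadjusted p under 0.05, against 1817 of 21698 genes tested. The median difference was -0.01 on the log2 scale, with a range from -0.14 (DLGAP5) to 0.25 (FOXM1). Without knockout JQ1 replicate 3 these were -0.025 for DLGAP5 and 0.115 for FOXM1, the median was 0.0408, and the range ran from -0.18 (CDC20) to 0.35 (CDK1, SE 0.0909, adjusted p = 0.129). With all libraries, for CDK1 the difference was 0.23 (SE 0.13, adjusted p = 0.668). A p that misses the threshold does not show that the responses are alike, and the standard errors of the difference were 0.07 to 0.175 with a median of 0.12, beside a median absolute JQ1 effect of 0.159 in wild type.

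**Figure D4:**
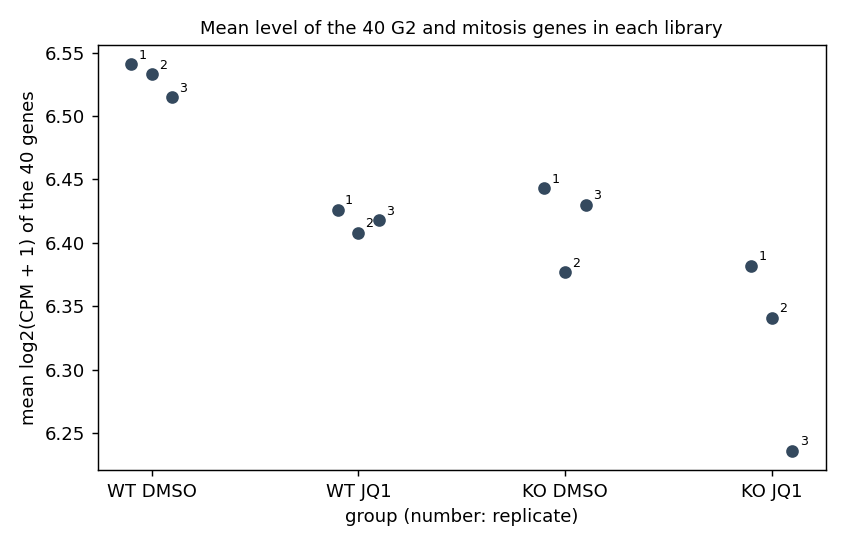
Mean log2(CPM + 1) of the 40 genes (vertical axis, not from 0) in each library, with the replicate number beside each point. Wild-type DMSO lies at 6.515 to 6.541, above wild-type JQ1 at 6.408 to 6.426, knockout DMSO at 6.377 to 6.443 and knockout JQ1 at 6.236 to 6.382.

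The mean over the 40 genes placed wild-type DMSO alone at the top. Its log2(CPM + 1) was 6.53 ± 0.0133, against 6.42 ± 0.00897 in the same cells with JQ1, and 6.42 ± 0.0351 and 6.32 ± 0.0751 in knockout cells with DMSO and JQ1 (SD, n = 3 each). Wild-type JQ1 and knockout DMSO overlapped. Within knockout JQ1, replicate 3 was lowest for 27 of the 40 members and highest for 8.

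Base composition moved with that library. Over the 40 genes, the log2 distance of knockout JQ1 replicate 3 from the mean of replicates 1 and 2 had a Pearson's r of 0.923 with the GC content of the longest annotated transcript, and over 11095 genes at 5 CPM or more r was 0.758. All 21 members below 45% GC were lower in replicate 3, among them CCNB1 (-0.53), HMMR (-0.47) and CENPE (-0.44). All 7 members above 55% GC were higher, among them PLK1 (0.44), CDC25B (0.41), MYBL2 (0.41) and FOXM1 (0.37). The comparisons themselves had an r with GC over the 40 genes of 0.4 for JQ1 in wild type, 0.416 for JQ1 in knockout, 0.4 for knockout in DMSO, 0.48 for knockout in JQ1 and 0.154 for the interaction. Over the 11095 genes r was 0.213, 0.179, 0.112, 0.0729 and -0.0406 in the same order. These points share libraries and scaling, and r is given as a description.

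**Figure D5:**
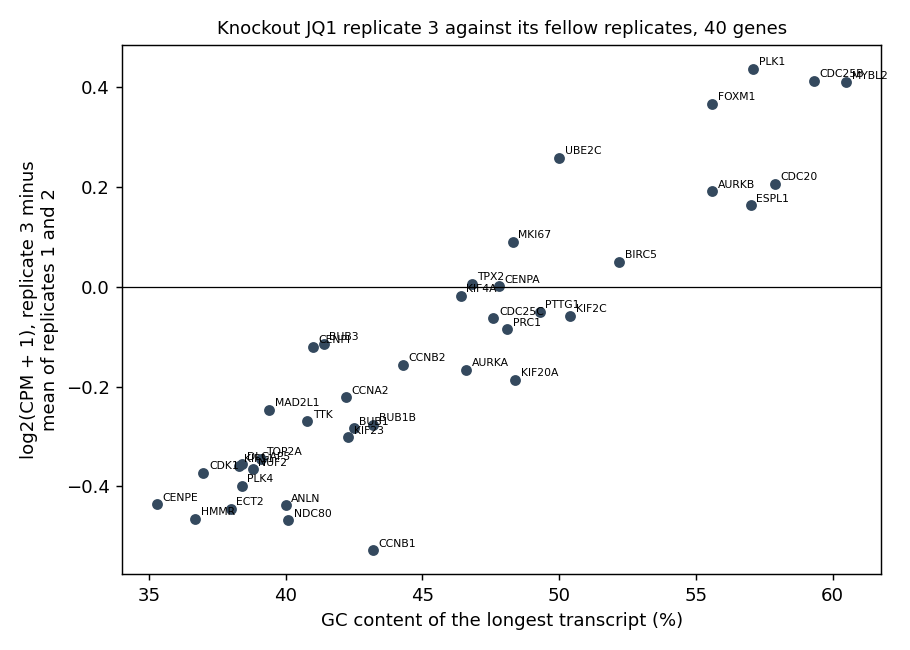
Difference of knockout JQ1 replicate 3 from the mean of its fellow replicates in log2(CPM + 1) (vertical axis) against the GC content of the longest transcript in percent (horizontal axis), 1 point per gene. The points climb from CENPE at 35.3% GC to MYBL2 at 60.5% GC.

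A fit with an offset for GC content and transcript length in each library gave values on this directly; it was chosen after the data were seen. JQ1 then raised 4 and lowered 15 members in wild type (40.2% of all genes called) and raised 8 and lowered 13 in knockout (41.5%). The log2 fold changes in wild type and knockout were -0.40 and -0.45 for HMMR, -0.45 and -0.43 for CDC25C, and 0.30 and 0.25 for CDC20. PLK1 was called lower in both genotypes (-0.23 and -0.14) and ANLN higher in both (0.25 and 0.25), CDK1 was called higher in knockout (0.20), and FOXM1 and MYBL2 lower in wild type (-0.20 and -0.23). In DMSO 9 members were lower in the knockout, and in JQ1 11 were lower and 2, PLK1 and BUB3, higher. Of all genes 14.2% and 15.6% were called in either direction, which is no background for lower calls alone. The interaction gave 0 calls again. The medians became -0.058, -0.0193, -0.112 and -0.102 in the 4 group comparisons.

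Genes of the same phases outside the 40 were called in both directions too, with rises and falls nearer to even. Of 80 other G2 and mitosis genes, all tested, 11 rose (13.8%, against 16.9% of all genes) and 15 fell (18.8%, against 16.2%) with JQ1 in wild type, and 19 rose (23.8%, against 16.7%) and 18 fell (22.5%, against 17.8%) in knockout. The median log2 fold changes were -0.05 and -0.06, and the difference from the 40 was not tested. KIF14, a cytokinesis kinesin, was at -0.63 (SE 0.11, adjusted p = 0.000335) and -0.94 (SE 0.11, adjusted p = 9.2e-06), and HMGB2, a chromatin protein, at -0.42 in wild type. The kinetochore genes CENPM (0.62 in wild type), CENPN (0.60 in knockout) and SKA1 (0.56 in knockout) rose.

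Knockout against wild type in DMSO gave 1 higher and 6 lower of these 80. The lower calls made up 7.5% of the list, against 4.44% of all genes, while 3.47% of all genes were higher. In JQ1 2 of the list were higher (2.5%, against 3.01% of all genes) and 7 lower (8.75%, against 5.56%). The centrosome kinase NEK2 was lower, at -0.51 in DMSO (SE 0.07, adjusted p = 0.000221) and -0.66 in JQ1 (SE 0.07, adjusted p = 2.34e-05). CENPF, a kinetochore protein, was lower, at -0.57 and -0.65, and WEE1, the kinase that inhibits CDK1, was higher by 0.45 and 0.58. NEK2 and CENPF lie on chromosome 1 distal to MAPKAPK2, the targeted gene, as does LIN9 below. None of the 40 members lies there, and 3 are on chromosome 1 at all.

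Among 11 subunits of the DREAM and MYBL2-MuvB complexes outside the 40, JQ1 lowered 5 in wild type (45.5%, against 16.2% of all genes). In knockout it lowered 3 (27.3%, against 17.8%). None rose, against 16.9% and 16.7% of all genes. RBBP4 (-0.35), TFDP2 (-0.35) and LIN52 (-0.46) were lowest in p in wild type, and the pocket protein gene RBL2 (-0.41), TFDP2 (-0.30) and E2F5 (-0.24) in knockout. In the knockout LIN9 was lower in DMSO (-0.63, SE 0.17, adjusted p = 0.0311) and in JQ1 (-0.68, SE 0.18, adjusted p = 0.0263). E2F5 was higher in DMSO (0.31), and LIN52 (0.54) and RBBP4 (0.22) in JQ1. RBL1 was at -0.24 in DMSO and not called.

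The 24 S-phase genes gave 6 higher (25%, against 16.9% of all genes) and 6 lower (25%, against 16.2%) with JQ1 in wild type. In knockout 8 were higher (33.3%, against 16.7%) and 4 lower (16.7%, against 17.8%). PCNA, the sliding clamp of replication, rose by 0.45 and 0.52, and RRM2, the small subunit of ribonucleotide reductase, by 0.28 and 0.61. CDC6 rose in knockout (0.51) and MCM5 fell in wild type (-0.35). Knockout against wild type lowered MCM4 in both treatments (-0.61 in DMSO and -0.54 in JQ1) and RRM2 in DMSO (-0.20), raised TYMS in JQ1 (0.21), and left E2F1 in DMSO (-0.33) and MCM3 in JQ1 (0.16) short of the threshold.

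Some members have near-identical copies or antisense partners in the table, and whether the counting used the strand is not given in the sources used here. Those rows were small: HMMR-AS1 held 4 to 13 counts per library, PRC1-AS1 10 to 30, AURKAPS1 17 to 59, CENPIP1 27 to 64, KIF4B 0 to 9 and PTTG2 0 to 2.

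CDKN1A, which encodes the CDK inhibitor p21, moved in the same comparisons. Its mean was 57.6 ± 1.86 CPM in wild-type cells with DMSO, 148.5 ± 6.54 with JQ1, 84.1 ± 3.22 in knockout cells with DMSO and 172.5 ± 11.9 with JQ1 (SD, n = 3 each). It rose with JQ1 by 1.36 on the log2 scale (SE 0.06, adjusted p = 1.55e-09) in wild type and 1.04 (SE 0.06, adjusted p = 1.3e-08) in knockout. CDKN1A was higher in the knockout by 0.54 in DMSO and by 0.22 in JQ1 (SE 0.06, adjusted p = 0.0405). Its part in the members' values was not tested.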

How the data were processed

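Per the labels, RNA depleted of ribosomal RNA was made into directional libraries. The submitters' processing notes name Trim Galore, cutadapt, FastQC, MultiQC, kallisto, DESeq2 and GRCh38.p10, without versions. The authors deposited estimated counts per symbol, of which 39.7% were not whole, and a normalized signal per gene and library, used only in alternatives.

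Estimated counts were rounded, genes with low counts removed with filterByExpr, and 12 libraries in 4 groups fitted with TMM scaling and edgeR's quasi-likelihood test (edgeR 4.0.16, limma 3.58.1, R 4.3.3), checked on simulated data. P-values were adjusted over 21698 genes by Benjamini-Hochberg with a threshold of 0.05. The SE is that of the log2 fold change, and a pseudocount of 1 was used for log2 CPM. Groups came from genotype and treatment labels; titles of DMSO samples say untreated. Alternatives changed filter, scaling, tool (DESeq2 1.42.0, limma), samples fitted, replicate block, and left out each library. Gene positions, length and GC content came from GENCODE release 29.

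Values per library are given for 17 members named by a set rule and, per comparison, for those with the smallest adjusted p; 3 genes per comparison come from each outside list. Members and lists were chosen with earlier results of these data known.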

Additional observations from a re-analysis of the deposited data

How the results depend on the processing

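Of 594 values under alternatives for named genes called with all libraries, 520 kept the call and 74 lost it. Of 2131 for those not called, 73 gained one. None reversed. Members called with JQ1 in wild type (15) became 23 with library totals only, and 8 to 20 with 1 library left out. In knockout (16) they became 9 with only the groups compared, and 9 to 17 with 1 library left out. Knockout against wild type in DMSO (0) gave 2 with no filter on low counts, 1 with library totals, 12 with only the groups compared, 9 with the offsets for GC content and length, and 0 to 11 with 1 library left out. In JQ1 (3) it gave 5 with no filter, 0 with only the groups compared, 13 with the offsets and 0 to 6 with 1 library left out. The interaction gave 0 in all alternatives. The members' median log2 fold change with JQ1 in wild type became -0.2 among genes at 5 CPM or more, -0.273 with library totals and -0.058 with the offsets. In knockout it became -0.238 with library totals, -0.0193 with the offsets, and -0.154 to -0.0435 with 1 library left out. For knockout against wild type in JQ1 that last range was -0.14 to -0.0419. The cause was not tested.

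Same-numbered samples did not consistently deviate together (r from -0.538 to 0.517 over 18 pairs, 5 of them over 0.1). Such values cannot show whether equal numbers share a day or culture, which the labels do not say. A fit with the replicate block called 16, 15, 0, 2 and 0 members in the 5 comparisons and changed no count by over 1.5 times. With 3 samples a group the estimate of spread is imprecise.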
